A study of Rattus norvegicus with 2 samples.

Results

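Mitochondrial ribosomal proteins were followed on the resting and OGD arrays of microglial cells, which are the macrophages of brain tissue. The members were all probe sets that the platform annotation gives to exactly 1 gene whose symbol starts with Mrpl or Mrps followed by a number. That rule took 97 of 31099 probe sets, for 73 of 14217 genes, with 46 genes of the large subunit (Mrpl) and 27 of the small subunit (Mrps). RNA came from microglial cells of Sprague Dawley rats kept in DMEM with 10% FCS. The resting group was not exposed (1 array), and the OGD group underwent oxygen-glucose deprivation for 3 h (1 array), a culture model of ischaemia in which oxygen and glucose are withheld. The number of animals or cultures behind each array, and whether cells were pooled, is not given in the sources used here.

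Mitochondria carry their own ribosomes, which make the few membrane subunits of the respiratory chain and ATP synthase that mitochondrial DNA encodes. All proteins of these ribosomes come from nuclear genes, are made in the cytosol and are imported. The large subunit joins amino acids and passes the chain through an exit tunnel to the inner membrane, and the small subunit decodes the messenger RNA. Many of the proteins have bacterial counterparts, while others occur only in mitochondria.

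The annotated start sites of the genes are shown first, since short motifs recurred there. Whether the motifs bear on the differences between the arrays was not tested. RefSeq windows of assembly GRCr8, with 250 bases before the start and 50 from it on, were matched by gene ID for 59 of the 73 members. The sequences below are the 120 bases before the start, 5′ to 3′ on the gene's strand. Capitals mark matches to CCGGAAG (the core bound by ETS factors such as GABPA), AAGATGGC (YY1) or CGCATGCG (the core bound by nuclear respiratory factor NRF1), on either strand. The genes shown are examples, and most members' stretches of this length hold no such match. Those of Mrpl14, Mrpl30 and Mrps25, which are not shown and were also among the widest differences, hold none. The first 5 genes were lower on the OGD array: Mrpl23 (chr1:207116810-207116929, plus strand), Mrps31 (chr16:76324066-76324185, minus strand), Mrpl22 (chr10:42845790-42845909, plus strand), Mrpl17 (chr1:169575700-169575819, minus strand) and Mrpl34 (chr16:18186327-18186446, plus strand). The last 3 were higher on it: Mrpl36 (chr1:31795122-31795241, minus strand), Mrpl48 (chr1:164351377-164351496, minus strand) and Mrps17 (chr12:32587813-32587932, minus strand).
Mrpl23: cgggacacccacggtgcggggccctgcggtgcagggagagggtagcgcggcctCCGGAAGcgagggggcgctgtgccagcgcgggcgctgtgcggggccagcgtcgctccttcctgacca
Mrps31: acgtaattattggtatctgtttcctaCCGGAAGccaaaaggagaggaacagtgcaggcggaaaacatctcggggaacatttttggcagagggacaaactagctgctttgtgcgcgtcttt
Mrpl22: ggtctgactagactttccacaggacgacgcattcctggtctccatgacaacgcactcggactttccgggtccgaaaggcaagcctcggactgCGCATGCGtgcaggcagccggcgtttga
Mrpl17: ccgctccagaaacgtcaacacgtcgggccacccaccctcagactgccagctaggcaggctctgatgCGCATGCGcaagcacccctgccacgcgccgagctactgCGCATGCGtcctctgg
Mrpl34: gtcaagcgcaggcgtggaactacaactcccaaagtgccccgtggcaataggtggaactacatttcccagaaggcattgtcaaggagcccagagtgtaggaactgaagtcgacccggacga
Mrpl36: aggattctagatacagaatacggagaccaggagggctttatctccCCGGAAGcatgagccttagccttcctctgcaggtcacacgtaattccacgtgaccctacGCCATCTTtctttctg
Mrpl48: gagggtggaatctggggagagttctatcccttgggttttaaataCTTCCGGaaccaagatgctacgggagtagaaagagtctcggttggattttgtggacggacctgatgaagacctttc
Mrps17: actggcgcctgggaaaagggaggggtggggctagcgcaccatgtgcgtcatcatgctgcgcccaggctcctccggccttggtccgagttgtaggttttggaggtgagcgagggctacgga

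Mrpl23 and Mrps31 each hold the ETS core, Mrpl22 holds the NRF1 core and Mrpl17 holds it 2 times, while Mrpl34 and Mrps17 hold none of these letters in the stretch. Mrpl36 holds the ETS core and, on the other strand, the YY1 letters, and Mrpl48 holds the ETS core on the other strand. Over the full windows the ETS core was found in 20 of 59 members (33.9%), against 9.63% of the 27457 genes in the table and 17.6% of the 7994 genes measured here that have a window. The YY1 letters were found in 14 members (23.7%), against 3.62% and 5.82%, and the NRF1 core in 6 (10.2%), against 1.86% and 3.68%. At least 1 of these 3 motifs stood in 33 members (55.9%), against 24.4% of the measured genes. Among 71 windows of oxidative phosphorylation subunits the shares were closer to the members', at 28.2% for the ETS core, 21.1% for the YY1 letters, 8.45% for the NRF1 core and 43.7% for at least 1 of them. Of the comparison motifs, the GC box GGGCGG was in 50.8% of members, against 36.0% of the table and 63.5% of measured genes, and the TATA box TATAAA in 13.6%, against 15.3% and 7.47%. Windows of members had a median GC content of 56.0%, those of measured genes 60.7%. Matches were counted on both strands (CGCATGCG reads the same on both), and among the members' 61 windows 1 pair of matches to different motifs overlapped.

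Within the members the ETS core lay near the start, with 21 of 22 matches within 100 bases of it. Of the 14 YY1 matches 10 began at or after the start, and 12 were on the gene's own strand. A large part of each window lies within 100 bases of the start in any case. Positions and strands were counted for the members only, so whether they differ from those in other genes was not tested. Both subunits shared the first motifs, with the ETS core in 13 of 38 Mrpl and 7 of 21 Mrps genes and the YY1 letters in 8 and 6. The NRF1 core stood in 5 Mrpl genes and 1 Mrps gene. Measured members with at least 1 of the 3 motifs had a median log2 difference of -0.089 (27 of 32 lower on the OGD array), and those with none had -0.15 (21 of 25 lower). Such matches describe letters in a window, and binding was not measured.

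**Figure D1:**
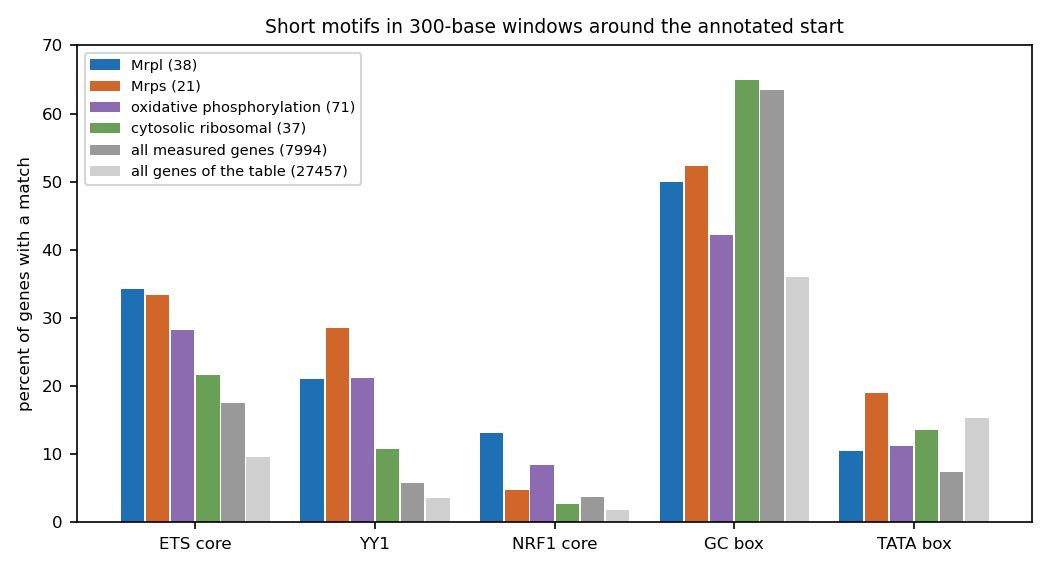
Percent of genes (vertical axis) whose 300-base start window holds each of 5 short motifs (horizontal axis), for Mrpl, Mrps, oxidative phosphorylation, cytosolic ribosomal protein and all genes. The ETS core, at 34.2% of Mrpl and 33.3% of Mrps genes, and the YY1 letters, at 21.1% and 28.6%, stand above the 17.6% and 5.82% of all measured genes.

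The deposited values are linear intensities, 1 per probe set and array, and a floor was set at the median of each array, 19.6 at rest and 19.7 after OGD. Each gene was represented by its brightest probe set and counted as measured if either array exceeded the floor, which held for 9580 of 14217 genes. Among the members 71 of 73 were measured, 70 of them on both arrays. The 2 others, Mrpl42 (7.78 at rest, 8.25 after OGD) and Mrpl51 (16.5 and 15.3), exceeded the floor on neither array and have no difference. Members with a probe set above the floor covered a wide range of brightness, from 20.3 for Mrpl53 to 1322 for Mrpl20 on the resting array. Brightness also depends on the probes, so levels of different genes are not ranked.

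The members were slightly but broadly lower on the OGD array, in both subunits and by nearly the same amount. Of the 71 measured members 61 were lower, 8 were higher and 2 were equal, where 51.3% of all measured genes were lower and 42.8% higher. The median log2 difference, OGD minus resting, was -0.12 (1.09-fold lower), with an SD over genes of 0.11, against a median of -0.0076 over all measured genes. No member reached the 1.5-fold named in the series' design text (0 of 71), a size that 0.115% of measured genes reached (0.0731% higher and 0.0418% lower). Past 1.2-fold were 6 members, 5 lower and 1 higher, where 7.53% of all measured genes were past it, 3.97% lower and 3.56% higher. With both directions pooled, the members' share past 1.2-fold (6 of 71) was near that of all genes. By direction it was 7.04% lower and 1.41% higher. With 1 array per group there is no test, and the values describe these arrays only. In RNA from whole cultures, less RNA per cell and fewer cells of a type cannot be told apart.

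The medians of the subunits lay close together, and with 1 array per group their difference has no test. For the large subunit 38 of 44 genes were lower, 4 higher and 2 equal, with a median log2 difference of -0.12 and quartiles of -0.17 and -0.062. For the small subunit 23 of 27 were lower and 4 higher, with a median of -0.12 and quartiles of -0.17 and -0.067. The Mrpl median minus the Mrps median was -0.00034, and it lay between -0.024 and 0.039 under the other ways of processing, so it took either sign. The median intensity of the Mrpl probe sets was 189.0 at rest and 173.7 after OGD, and that of the Mrps probe sets 120.6 and 108.1. Mrps30 and Mrps18a carry small-subunit names although their proteins sit in the mammalian large subunit. Counting both genes with the large subunit left the difference of medians at -0.00034.

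**Figure D2:**
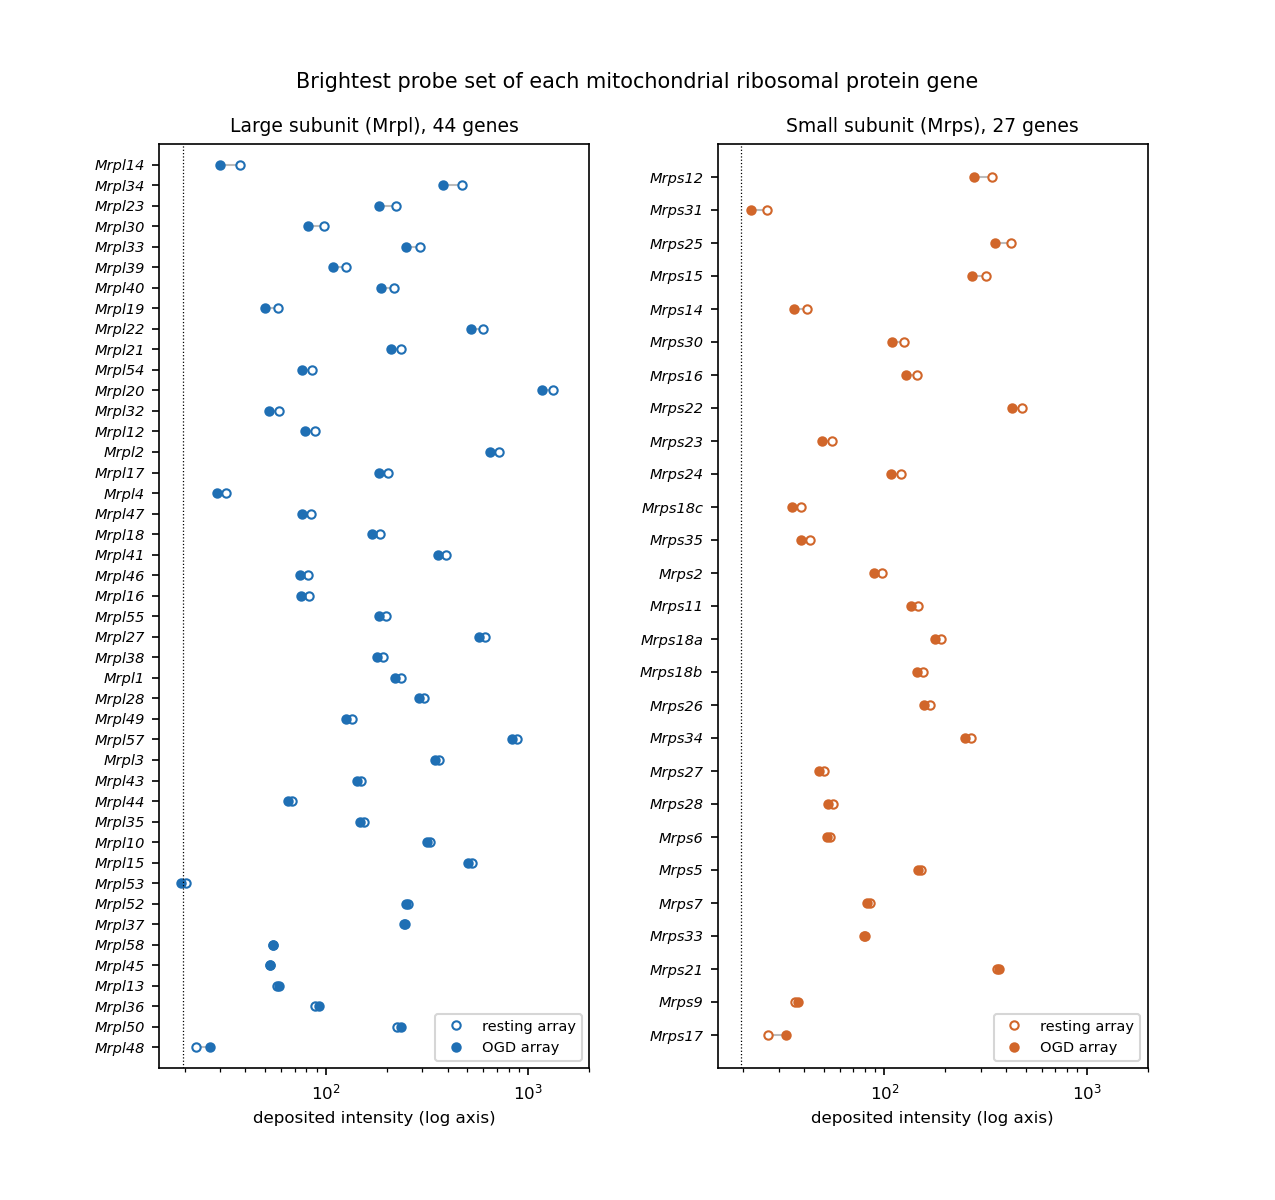
Resting (open) and OGD (filled) intensity for the brightest probe set of each of 44 Mrpl and 27 Mrps genes, on a log axis, ordered by difference with the dotted floor at 19.6. In 61 of the 71 rows the filled point lies to the left of the open one, from Mrpl14 and Mrps12 at the top down to Mrpl37 and Mrps7.

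Within the large subunit Mrpl14, Mrpl34, Mrpl23 and Mrpl30 gave the widest differences below zero. Mrpl14 was at 37.5 at rest and 29.8 after OGD (1.26-fold lower), Mrpl34 at 469 and 378 (1.24-fold), Mrpl23 at 222 and 183 (1.21-fold) and Mrpl30 at 98.1 and 81.7 (log2 difference -0.26). All 4 encode proteins with bacterial counterparts: Mrpl14 lies at the face toward the small subunit, where it is the docking site of the assembly factor Malsu1, and Mrpl23 lines the end of the exit tunnel. Malsu1 itself was at 1099 and 939 (1.17-fold lower), while of the 17 measured assembly factors 7 were lower and 10 higher. Next in this subunit came Mrpl33 at 293 and 249 (1.18-fold), Mrpl39 at 126 and 108 (1.17-fold), Mrpl40, a protein of the central protuberance, at 217 and 186 (1.16-fold), and Mrpl19 at 58.1 and 50.2 (1.16-fold).

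Other genes around the exit tunnel and the catalytic centre had smaller differences. Mrpl22, another tunnel protein, was at 598 at rest and 521 after OGD (1.15-fold lower). Mrpl4 was at 32.2 and 29.0 (1.11-fold). Mrpl45, which ties the tunnel exit to the inner membrane, had exactly 53.2 on both arrays. Near the site of peptide bond formation, Mrpl2 was at 720 and 646 (1.11-fold lower), Mrpl16 at 82.4 and 75.4 (1.09-fold), Mrpl27 at 613 and 570 (1.08-fold) and Mrpl3 at 363 and 345 (1.05-fold). Of the stalk, where translation factors bind, Mrpl12 was at 88.2 and 78.6 (1.12-fold lower) and Mrpl10 at 328 and 314 (1.04-fold). The brightest member, Mrpl20, was at 1322 and 1176 (1.12-fold lower), so the direction was not confined to dim probe sets.

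In the small subunit Mrps12 came first, at 340 at rest and 278 after OGD (1.23-fold lower). It encodes the counterpart of bacterial S12, a protein of the decoding centre. Mrps31 (26.1 and 21.8) and Mrps25 (421 and 352), both without a bacterial counterpart, had log2 differences of -0.26 each, though Mrps31 lay close to the floor. Mrps15 was at 318 and 271 (1.17-fold) and Mrps14 at 41.6 and 35.7 (1.17-fold). Mrps30 was at 125 and 109 (1.14-fold), and Mrps16 at 144 and 128 (1.13-fold). Mrps22, in which inherited variants cause respiratory chain deficiency, was at 479 and 428 (1.12-fold). The 3 Mrps18 paralogs, all related to bacterial S18, were close to each other in difference: Mrps18a had 191 and 178 (1.07-fold lower), Mrps18b 154 and 144 (1.07-fold) and Mrps18c 38.8 and 35.0 (1.11-fold).

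The members that were higher on the OGD array were few and 2 of them were dim. Mrps17 had 26.6 at rest and 32.7 after OGD (1.23-fold higher) and Mrpl48 22.7 and 26.8 (1.18-fold higher), both close to the floor of 19.6. The other 6 were higher by at most 1.04-fold: Mrpl50 (225 and 235), Mrpl36 (88.7 and 92.3), Mrps9 (36.1 and 37.2), Mrpl13 (57.5 and 58.8), Mrps21 (361 and 367) and Mrps33 (79.3 and 80.2). Mrpl58, a peptidyl-tRNA hydrolase built into the large subunit, had 54.6 on both arrays and was the other equal member besides Mrpl45. Equal values occurred in 6 of the 97 member probe sets (6.19%) and in 8.70% of all probe sets besides controls, for a reason not given, so they may not show an unchanged level. Mrpl53 was above the floor at rest only, at 20.3 against 19.1, and its difference is a bound, at least 1.03-fold lower.

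Sorted by size, 14 members had log2 differences under -0.2, 26 lay from -0.2 to -0.1, 21 from -0.1 to 0, 8 from 0 to 0.1 and 2 at 0.1 or above. The same ranges held 9.15%, 17.0%, 25.1%, 28.4% and 20.3% of all measured genes. Proteins with a bacterial counterpart had a median of -0.14 (39 of 44 lower) and those found only in mitochondria -0.086 (22 of 27 lower). This order was not the same in both subunits: in the large one the medians were -0.15 over 27 genes and -0.068 over 17, and in the small one -0.10 over 17 and -0.15 over 10. All 5 members past 1.2-fold lower, and the 1 past it higher, had a bacterial counterpart. That split depends on where the cut falls. Mrpl30 passed it at 1.201-fold, while Mrps31 and Mrps25, found only in mitochondria, just missed it at 1.197-fold and 1.196-fold. Of all measured genes 3.97% were past 1.2-fold lower and 3.56% past it higher.

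**Figure D3:**
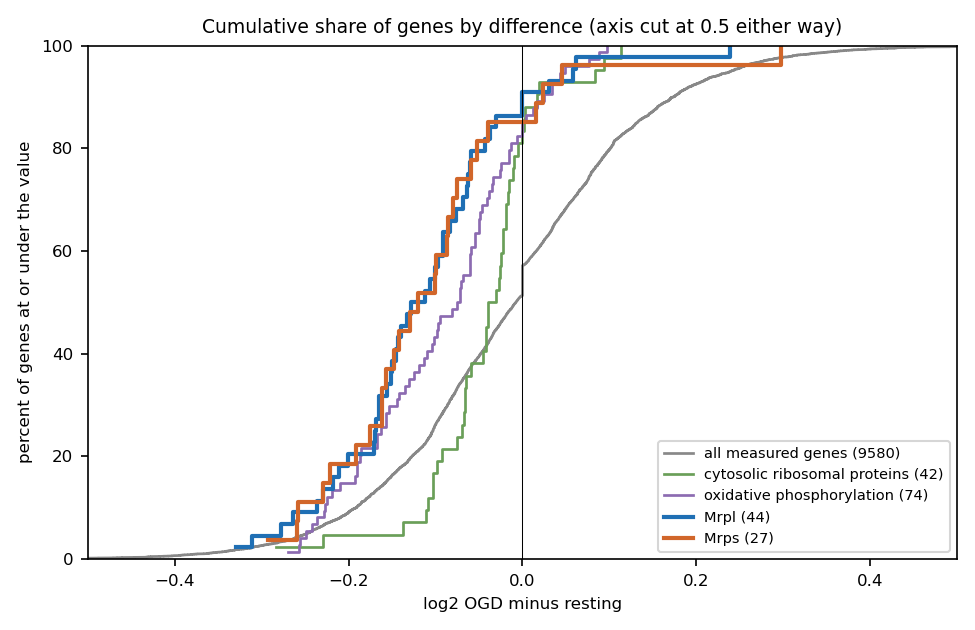
Cumulative percent of genes (vertical axis) by log2 OGD minus resting (horizontal axis) for Mrpl, Mrps, oxidative phosphorylation, cytosolic ribosomal protein and all measured genes. The Mrpl and Mrps curves run together, with medians of -0.12, to the left of oxidative phosphorylation (-0.074), cytosolic ribosomal proteins (-0.035) and all genes (-0.0076).

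Brighter genes were lower on the OGD array in general, so the members were also read beside other genes of like brightness. Among genes with a mean intensity of 320 or more, 64.4% of 1037 other genes were lower, with a median of -0.037, and 12 of 13 members were, with a median of -0.14. From 160 to 320 the other genes had 59.1% lower and a median of -0.032, and 17 of 18 members were lower, with a median of -0.11. From 80 to 160 it was 56.8% and -0.025 for other genes, and 15 of 16 members with -0.12. Under 80 the other genes had a median of 0 in both bands, and the members -0.080 (11 of 15 lower from 40 to 80) and -0.15 (6 of 9 lower under 40). With a loess trend on brightness removed from all genes, the members' median was -0.088, with 84.5% lower against 50.2% of all measured genes. Members over 100 on both arrays were lower in 39 of 41 genes, with a median of -0.11, the exceptions being Mrpl50 and Mrps21. Of all 2790 measured genes over 100 on both arrays 61.0% were lower, with a median of -0.034.

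**Figure D4:**
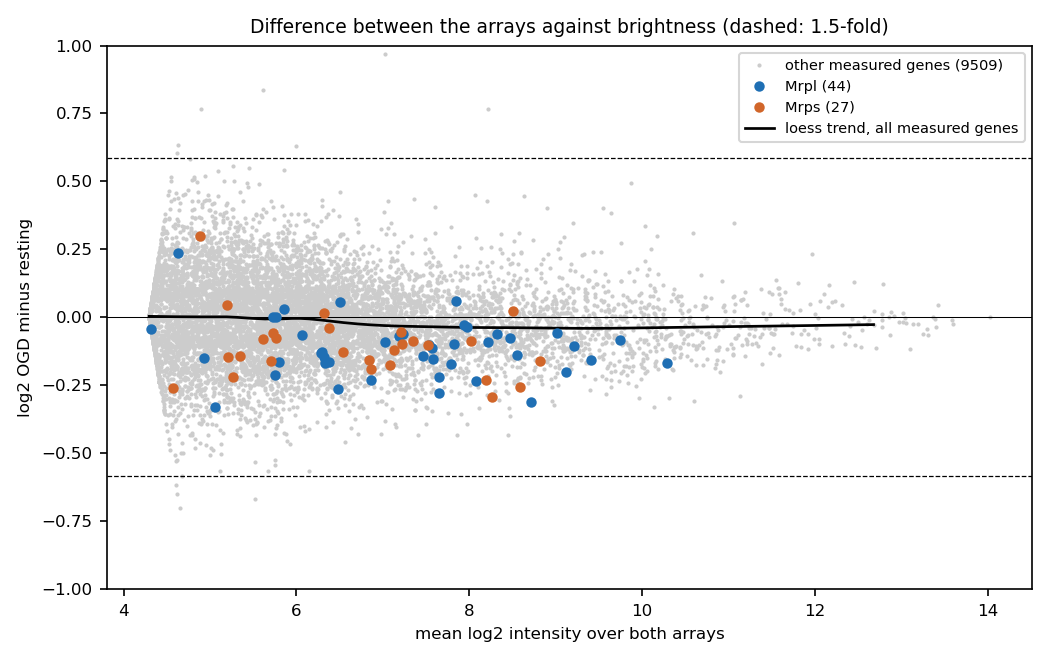
Log2 OGD minus resting (vertical axis) against mean log2 intensity over both arrays (horizontal axis) for 44 Mrpl, 27 Mrps and 9509 other measured genes, with the loess trend of all genes and dashed lines at 1.5-fold. Of the members 84.5% lie under the trend, and none reaches a dashed line.

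Probe sets against the same gene gave the only check of precision within the arrays. Over 1902 genes with several probe sets that exceeded both floors, the differences of single probe sets had a within-gene SD of 0.15. The SD over all measured genes was 0.15 as well. A single gene's difference of that size therefore lies within the spread between probe sets of 1 gene. Over the 8 members of that kind, with 18 probe sets, the SD was 0.087. Mrpl12, whose probe sets went opposite ways, is not among these 8, since its second probe set was under the floor at rest. Among the members 9 genes, with 20 probe sets above the floor on at least 1 array, could be compared this way, and 15 of the 20 probe sets were lower. All probe sets were lower for 5 of these genes. For Mrps2 the 3 probe sets had log2 differences of -0.13, -0.068 and -0.18, for Mrpl49 they had -0.091 and -0.16, and for Mrpl52 -0.037 and -0.16. Mrpl57 (-0.084 and -0.019) and Mrpl10 (-0.060 and -0.040) were lower in both probe sets.

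The remaining 4 genes disagreed between probe sets. The second probe set of Mrpl12 was under the floor at rest (17.5) and above it after OGD (24.3), at least 1.24-fold higher, opposite to the brightest. For Mrpl37 the 3 probe sets had -0.030, -0.10 and 0.14. For Mrpl40 the brightest had -0.22 and the other was equal at 28.6, and for Mrpl50 the brightest had 0.061 and the other was equal at 26.1. Taking the next brightest probe set of each gene, available for 9 members, gave a median of -0.040 with 6 lower. The brightest probe sets of the same 9 genes had -0.084 with 8 lower, and the next brightest probe sets over all measured genes had 0 with 47.9% lower. That choice was made after the data were seen.

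**Figure D5:**
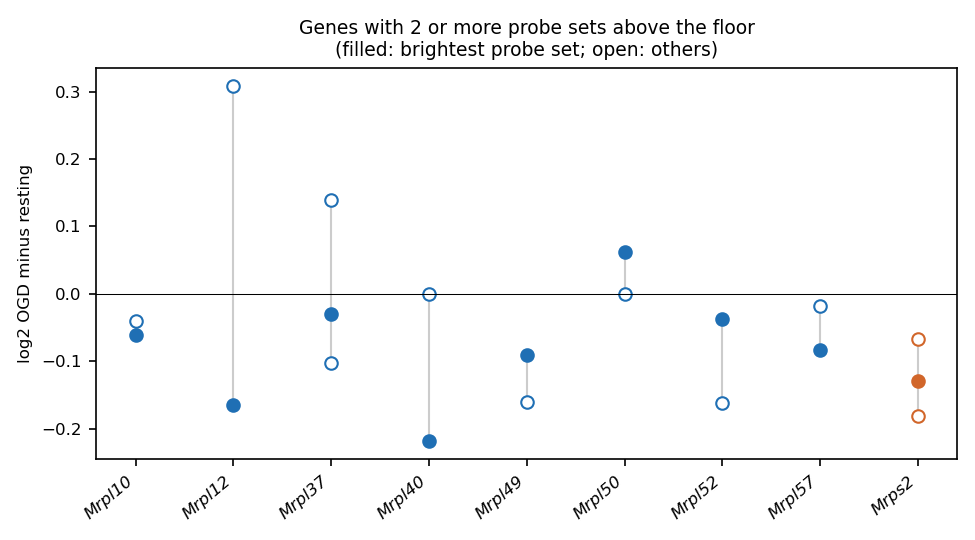
Log2 OGD minus resting (vertical axis) of each probe set above the floor for the 9 members with at least 2 of them (horizontal axis), filled for the brightest probe set. Mrps2, Mrpl49, Mrpl52, Mrpl57 and Mrpl10 lie under 0 in all probe sets, and Mrpl12 and Mrpl37 lie on both sides.

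Mitoribosomal proteins whose symbols do not start with Mrp were lower as well. Of 5 such genes 4 were measured and all 4 were lower. Gadd45gip1, of the large subunit, was at 106 at rest and 88.0 after OGD (log2 difference -0.27), and Aurkaip1, of the small subunit, at 303 and 258 (1.17-fold). Dap3 (107 and 103) and Ptcd3 (95.3 and 92.1), both of the small subunit, were each 1.04-fold lower. Chchd1 was under the floor on both arrays.

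Among factors that work with the mitochondrial ribosome, the lists for translation and for ribosome assembly had medians at or just above zero, and that for aminoacyl-tRNA synthesis had one below it. Mitochondrial translation factors had a median log2 difference of 0, with 5 of 11 measured genes lower and 5 higher. Among these Oxa1l, which inserts new chains into the inner membrane, was at 43.5 at rest and 37.4 after OGD (1.16-fold lower), Slirp, a partner of mitochondrial messenger RNA, at 691 and 617 (1.12-fold) and the elongation factor Tufm at 401 and 364 (1.10-fold). Ribosome assembly factors had 0.028, with 7 of 17 lower. In that list the rRNA methyltransferase Mrm2 was at 25.1 and 32.3 (1.29-fold higher), the pseudouridine synthase Trub2 at 32.6 and 39.0 (log2 difference 0.26) and the rRNA methyltransferase Nsun4 at 37.7 and 32.2 (1.17-fold lower). Aminoacyl-tRNA synthesis had -0.056, with 9 of 13 lower, and the amidotransferase genes Gatc (30.7 and 23.2) and Gatb (79.7 and 66.5) had log2 differences of -0.40 and -0.26. Sars2, the seryl-tRNA synthetase gene, was at 47.5 and 55.2 (1.16-fold higher). None of these genes reached 1.5-fold.

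Genes for mitochondrial DNA transcription and its nuclear regulators had a median of 0, with 6 of 13 lower. Esrra, a nuclear receptor that acts on mitochondrial genes, was at 78.2 at rest and 93.2 after OGD (1.19-fold higher). Tfb2m, a mitochondrial transcription factor, was above the floor after OGD only (21.7), at least 1.11-fold higher, and the ETS factor gene Gabpa was 1.09-fold higher, at 29.3 after OGD. Nrf1 had 46.1 on both arrays, Yy1 208 and 205, and Polrmt, the mitochondrial RNA polymerase, 85.9 and 83.0. Tfam and Ppargc1a were under the floor on both arrays.

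In each of 2 other large families most genes were lower, with family medians closer to zero than the members' -0.12. Complex I, the largest part of 1 of them, was as low as the members. Oxidative phosphorylation subunits, some of whose partners the mitochondrial ribosome makes, had a median of -0.074 with 61 of 74 lower. Within them genes were grouped into complexes by the start of their symbol, so the groups follow names and not the place of each protein. Grouped so, complex I genes had -0.13 (30 of 35 lower), complex IV -0.060 (10 of 13) and complex V -0.072 (12 of 15). Complex III had -0.047 (7 of 7) and complex II, which has no mitochondrially encoded subunit, 0.0041 (2 of 4). Cytosolic ribosomal proteins had a median of -0.035 with 34 of 42 lower. Their median intensity was 4543 at rest, and that median difference lay close to the -0.037 of other genes at 320 or more, of which 64.4% were lower. These families are counted on the same pair of arrays, so their common direction is not independent evidence, and no difference between families was tested.

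Of 14 microglial markers 13 had a probe set naming them alone, and all 13 exceeded the floor in 1 group or both. Their median resting intensity was 42.5, under the 57.6 of all measured genes. Trem2 (604 at rest), Cd68 (371), Itgam (60.9) and Aif1 (48.3) were among the brighter ones. Tmem119 (23.3) and Csf1r (21.9 at rest and, under the floor, 19.3 after OGD) lay close to the floor. Of the 13 measured markers 12 were lower on the OGD array. The 13 had a median log2 difference of -0.096 and a summed intensity of 1406 at rest and 1347 after OGD. C1qc, at 26.3 and 32.3, was higher. Of 7 astrocyte markers 3 were above the floor, with a summed intensity over all 7 of 118 and 140, and all 3 were higher after OGD, with a median log2 difference of 0.43: Gfap was at 27.4 and 36.9, Slc1a2 at 23.8 and 32.0 and Gja1 at 22.1 and 24.3, while Slc1a3, Aqp4, Aldh1l1 and S100b were under it. Summed intensities of oligodendrocyte lineage markers (3 of 6 above the floor) were 132 and 131. Those of neurons (1 of 6, Syn1, higher at 48.1 and 56.8) were 104 and 114. Those of fibroblasts (2 of 6, Pdgfrb and Col1a1) were 195 and 192, and those of endothelium (1 of 3, Vwf, higher at 46.3 and 56.4) 63.7 and 75.3. Pdgfrb, at 118 and 104, was brighter than every microglial marker besides Trem2 and Cd68. The part of any other cell type in the members' values was not tested.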

How the data were processed

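Expression was measured on 1 resting and 1 OGD array. Per the labels' protocols, RNA was extracted with TRIzol, reverse-transcribed from a T7-linked poly-T primer and labelled with biotin by in vitro transcription. The deposited values are intensities, 1 summarised linear value per probe set, and how the authors corrected, summarised and normalized them is not given in the sources used here. A shift shared by most genes cannot be seen where arrays have been scaled to each other. The number of arrays limits the precision.

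Of 31099 probe sets, 57 controls were set aside. Probe sets naming 1 gene (20826) were used, and the brightest by mean log2 stood for each gene. Values under each array's median were raised to it. Each difference is the log2 OGD value minus the log2 resting value, and no p-value is given. Genes above the floor on 1 array carry bounds. All 97 member probe sets had their Entrez ID in the RefSeq table, with unchanged symbols. Start windows and names are from RefSeq GRCr8, and no genome build of the arrays is used. Members, lists, motifs and bands were chosen with earlier results of these data known.

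Members were named with values when past 1.2-fold, among the 8 widest differences in either direction, above the floor on 1 array, or covered by several probe sets, and from each pathway list up to 3 genes by absolute difference. The Mrps18 paralogs and Mrps30 were added. Other genes given were chosen for their role after their values were seen. Alternatives were other floors (30th or 70th percentile, none), centring, quantile and loess scaling (span 0.3), other handling of probe sets, a pseudocount of 8.46, subunit assignment and updated symbols. The calculation was tested on simulated data. Python 3.11.15, pandas 2.3.3, numpy 2.4.6 and statsmodels 0.14.6 were used.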

Additional observations from a re-analysis of the deposited data

How the results depend on the processing

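The members' median stayed below zero, and most members stayed lower on the OGD array, under all 15 alternatives run for these values, with medians from -0.13 to -0.040 and 66.7% to 88.9% lower. The count past 1.5-fold was 0 under all 12 alternatives run for it. Few genes of any kind reached that size: 11 of all measured genes in the main setting, 4 with the pseudocount and 58 with no floor. A count of 0 among the members is therefore near the share over all genes. The median for all members was -0.099 after quantile scaling, -0.088 after loess scaling, -0.10 with probe sets averaged per gene and -0.040 in the next brightest probe sets (9 genes, whose brightest had -0.084). For Mrpl it was -0.095 after quantile scaling, -0.089 after loess scaling and -0.029 in the next brightest probe sets (8 genes). For Mrps it was -0.088 after loess scaling, -0.086 with probe sets averaged and, from the single gene Mrps2, -0.068 in the next brightest ones. The next brightest probe sets gave an Mrpl minus Mrps difference of 0.039 and 66.7% lower. Past 1.2-fold were 3 members, not 6, after loess scaling or with the pseudocount. Over all measured genes 721 were past it in the main setting, 729 after loess scaling and 409 with the pseudocount. With the pseudocount the count thus fell for all genes too, while after loess scaling it fell for the members only. Of 29 named members 2 changed sign: Mrpl12 had 0.072 with the mean over its probe sets, and Mrpl37 0.0022 under that setting and 0.0072 after loess scaling. The cause was not tested. Counted by probe set, 15 of 97 exceeded neither floor and could not show a difference. No paired analysis was possible because each group has 1 array, and leaving out a replicate was not possible for the same reason.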

Other observations

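A share of the deposited values had the same remainder. Divided by 0.5, the values of 919 of the probe sets besides controls (2.96%) left a remainder of 0.1652 on both arrays, within a tolerance of 0.0001, where even spacing of remainders would give 0.04% on 1 array. Among the members 7 genes were of this kind: Mrpl2, Mrpl34, Mrpl35, Mrpl45, Mrpl54, Mrps34 and Mrps35. Their median log2 difference was -0.14, with 6 lower and 1 equal, and the other 64 measured members had -0.12, with 55 lower. The source of the shared remainder is not given in the sources used here.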
